A study of Mus musculus with 6 samples.

Results

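SR proteins and heterogeneous nuclear ribonucleoproteins (hnRNPs) are abundant families of RNA-binding proteins that steer pre-mRNA splicing, and their mRNAs were followed here through the differentiation of a neuroblastoma line. The set was taken by gene symbol: the Srsf genes, Tra2a and Tra2b, Srrm1 and Srrm2, the Hnrnp genes and Syncrip (hnRNP Q). Processed pseudogene symbols were left out. The set was chosen with earlier results of these data known, so it was not a blind choice. It holds 36 of the 40413 genes in the table, 15 of them SR genes and 21 hnRNP genes. The filter on low counts kept 35 of the 36, among 13705 genes tested.

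All 6 libraries came from N2A-A5, which the labels describe as acceptor cells. N2A (Neuro-2a) is a mouse neuroblastoma line. The 3 libraries of 0 h came from undifferentiated cells with no treatment, grown in DMEM with 10% fetal bovine serum and blasticidin, an antibiotic. The 3 libraries of 96 h came from cells kept for 96 h in 1% fetal bovine serum with 10 µM retinoic acid, the vitamin A derivative that drives Neuro-2a cells towards a neuronal form, and without blasticidin. Within a group, the study's design names the libraries as biological replicates. Retinoic acid, less serum, no blasticidin and time in culture changed together, so their effects cannot be told apart.

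SR proteins carry RNA recognition motifs and a tail rich in arginine and serine, bind enhancers in exons and help recruit the splicing machinery to weak splice sites. The hnRNPs coat nascent transcripts and often act the other way, keeping the machinery off sites near the silencers they bind. Members of both families also travel to the cytoplasm or act in mRNA export, translation and decay, and many hold down their own mRNA by splicing in an exon that sends it to nonsense-mediated decay. Changes in the balance of such regulators are a known feature of neuronal differentiation.

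The mRNAs of both families were lower at 96 h almost throughout. Of the 35 members tested, 32 fell and none rose (edgeR's quasi-likelihood test, Benjamini-Hochberg adjusted p under 0.05 over all 13705 genes). Among all genes tested, 28.8% fell and 28.7% rose. At an unadjusted p under 0.05 the count of members higher was 0 as well, and it was 0 with DESeq2's Wald test and with limma-voom. The median log2 change of the members was -0.72, with a range of -1.33 to 0.09, while the median of all genes tested was 0.03. Among the 6521 protein-coding genes whose 0 h CPM lay within the members' range, 3229 fell and 1409 rose, and the median was -0.18. In 33 members every 96 h library lay below every 0 h library, which held for 31.7% of all genes, and the reverse held for 32.4% of all genes and for none of the members. A fall of at least 2-fold was called for 7 members, against 3.77% of all genes: Hnrnpdl, Srsf9, Srsf2, Srsf1, Tra2a, Hnrnpd and Srsf3.

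**Figure D1:**
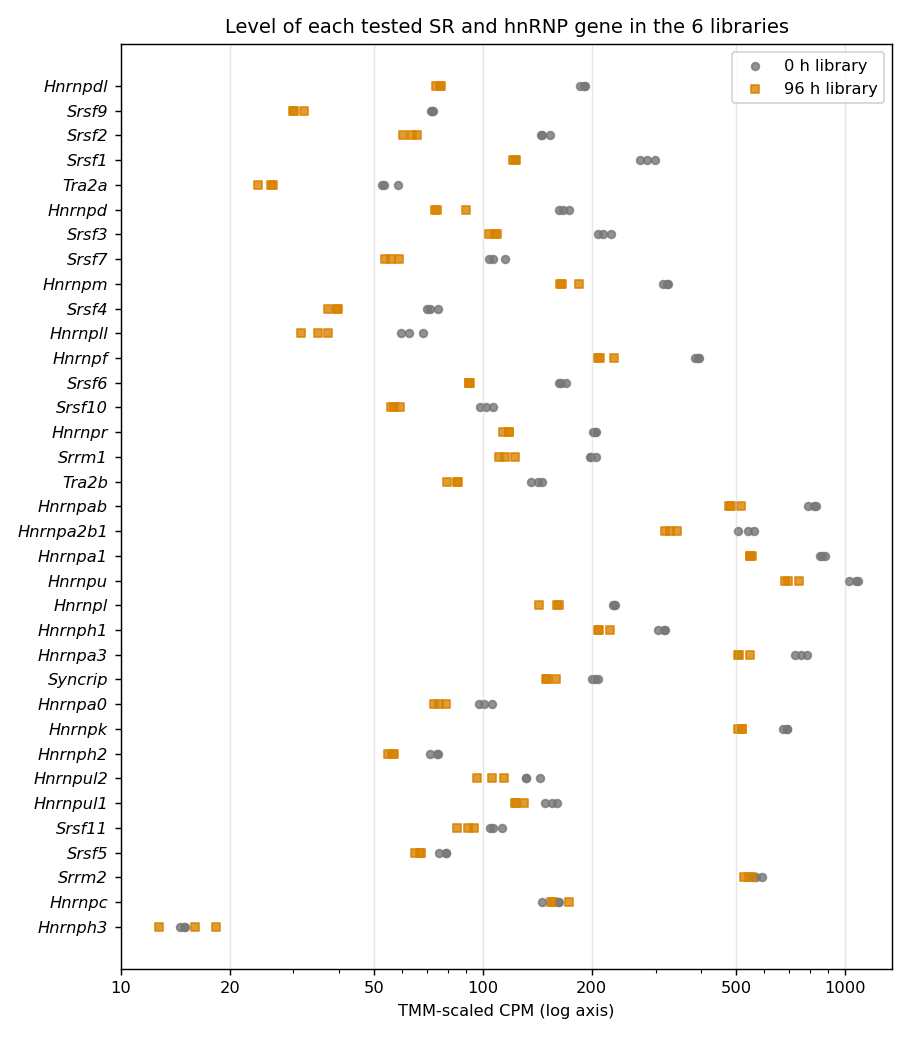
Normalised read count (CPM, log axis) of each of the 35 tested members in each of the 6 libraries, 0 h and 96 h marked apart. In 33 members the 3 points of 96 h lie left of the 3 points of 0 h, and the points of Hnrnpc and Hnrnph3 mix.

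The libraries held 16.8 to 20.9 M estimated counts each (M for mega). The share of counts in protein-coding genes of the nuclear genome was 64.9% ± 2.0 (SD, n = 3) at 0 h and 49.2% ± 1.9 (n = 3) at 96 h, and the predicted gene Gm26917 alone took 18.7 to 22.7% of counts at 0 h and 28.7 to 31.7% at 96 h. When the libraries were scaled and tested on nuclear protein-coding genes alone, the members counted again 32 lower and 0 higher. With no composition scaling (library size only), 34 members were lower and 0 higher, the median of all genes moved by -0.25, and the calls over all genes split into 2409 higher and 5849 lower in place of 3927 and 3942. Summed markers of neuroblastoma ran from 554 to 568 CPM at 0 h and from 450 to 461 CPM at 96 h. Fibroblast markers summed to 4.28 to 4.76 CPM at 0 h and 10.5 to 12.2 CPM at 96 h, with Lum and Col3a1 at 0. Most of that difference was in Pdgfra, with a mean of 2.58 CPM at 0 h and 7.95 CPM at 96 h, and Dcn (1.28 and 2.55 CPM), while Col1a2 was lower at 96 h (0.30 and 0.12 CPM). Those of astrocytes, microglia, endothelium and epithelium each stayed under 5 CPM in sum in every library, with Aqp4, Slc1a3, Aif1 and Krt18 at 0, and the part of any of these values in the members' change was not tested. In bulk RNA, fewer cells of a kind and less RNA per cell cannot be told apart.

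The promoters of 4 members are shown because these genes differ in response: the largest fall (Hnrnpdl), a classical SR gene with a fall past 2-fold (Srsf1), the member with the highest level per kb of its longest coding transcript (Hnrnpa1) and 1 of the 2 hnRNP genes that did not pass the test (Hnrnpc, the other being Hnrnph3). Each sequence is the stretch of 250 bases upstream of the RefSeq gene start in GRCm38.p6, written 5′ to 3′ on the gene's strand, with copies of the CCAAT box, the site of the factor NF-Y, in capitals on either strand (CCAAT or ATTGG). The Hnrnpdl stretch is chr5:100039223-100039472 on the minus strand and the Srsf1 stretch chr11:88047123-88047372 on the plus strand. The Hnrnpa1 stretch is chr15:103240147-103240396 on the plus strand and the Hnrnpc stretch chr14:52104022-52104271 on the minus strand.
Hnrnpdl: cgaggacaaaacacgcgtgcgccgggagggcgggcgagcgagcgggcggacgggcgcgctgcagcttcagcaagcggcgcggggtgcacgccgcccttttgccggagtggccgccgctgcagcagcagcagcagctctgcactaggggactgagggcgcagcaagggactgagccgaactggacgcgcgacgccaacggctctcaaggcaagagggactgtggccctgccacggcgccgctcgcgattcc
Srsf1: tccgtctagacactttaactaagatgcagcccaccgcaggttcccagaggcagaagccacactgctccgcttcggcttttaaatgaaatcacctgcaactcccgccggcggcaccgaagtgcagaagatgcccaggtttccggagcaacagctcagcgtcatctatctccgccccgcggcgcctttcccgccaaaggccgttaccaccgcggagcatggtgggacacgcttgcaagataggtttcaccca
Hnrnpa1: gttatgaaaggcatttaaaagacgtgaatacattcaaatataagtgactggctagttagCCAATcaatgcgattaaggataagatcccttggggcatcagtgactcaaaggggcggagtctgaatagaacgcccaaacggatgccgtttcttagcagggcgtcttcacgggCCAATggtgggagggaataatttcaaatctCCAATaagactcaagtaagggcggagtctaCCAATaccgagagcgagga
Hnrnpc: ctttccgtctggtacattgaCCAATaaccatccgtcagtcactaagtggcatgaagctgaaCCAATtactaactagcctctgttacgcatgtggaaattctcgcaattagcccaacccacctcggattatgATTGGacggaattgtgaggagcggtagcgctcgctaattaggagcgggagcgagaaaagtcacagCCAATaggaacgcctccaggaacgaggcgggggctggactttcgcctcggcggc
Hnrnpdl and Srsf1 hold no copy in these letters. Hnrnpa1 holds 4 copies, starting 191, 79, 49 and 19 bases before the gene start, and Hnrnpc holds 4, starting 230, 189, 119 and 54 bases before it. Hnrnpa1 fell and Hnrnpc did not pass the test, with the same number of copies. These 4 promoters do not stand for the rest. Of the other members with a fall past 2-fold, Srsf2, Tra2a and Srsf3 hold these letters and Srsf9 and Hnrnpd do not. Hnrnph3, which did not pass the test, holds none. A link between copies and change was not tested.

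Among the classical SR genes all 8 fell, with a median log2 change of -0.98, and the falls ranged from -1.24 to -0.23. Srsf1 encodes the founding SR protein, an activator of exon inclusion and a regulator of mRNA translation. Its level was 299, 284 and 272 CPM in the 0 h libraries and 122, 123 and 123 CPM in the 96 h libraries. The 2 groups stand far apart, and the 96 h level was 43.0% of that at 0 h (log2 change -1.22 ± 0.05 SE, adjusted p = 1.82e-10). Srsf2, a nuclear SR protein that does not shuttle and is also tied to transcription elongation, gave 153, 145 and 146 CPM at 0 h and 60.3, 65.6 and 63.9 CPM at 96 h, a log2 change of -1.22 ± 0.05 (adjusted p = 4.66e-10). Srsf9, the closest relative of Srsf1, had 73.0, 72.4 and 72.1 CPM at 0 h and 30.0, 30.2 and 32.0 CPM at 96 h (-1.24 ± 0.06, adjusted p = 1.15e-09). Srsf3 and Srsf7, small shuttling SR proteins that also link splicing to mRNA export, changed by -1.01 ± 0.05 and -0.95 ± 0.06. Srsf4 and Srsf6, with a long arginine-serine tail, fell by 0.89 ± 0.06 and 0.85 ± 0.05 on the log2 scale.

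Srsf5 differed in size from the other classical SR genes. This SR protein, known as an early response gene of growth stimulation, had 79.4, 78.9 and 75.9 CPM at 0 h and 67.3, 65.2 and 67.1 CPM at 96 h. The groups do not overlap, but the log2 change was -0.23 ± 0.05 (adjusted p = 2.03e-03), and the next smallest fall among the classical SR genes was the -0.85 of Srsf6. Against a change of 1.2-fold, the other 7 passed and Srsf5 did not.

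Of the other SR and TRA2 genes, all 4 that were tested fell. Tra2a, a sequence-specific activator related to the fly sex determination factor transformer 2, had 58.5, 52.8 and 53.2 CPM at 0 h and 24.0, 26.0 and 26.3 CPM at 96 h (-1.11 ± 0.07, adjusted p = 1.54e-08). Its paralog Tra2b changed by -0.76 ± 0.05. Srsf10, which acts as a splicing repressor when dephosphorylated after heat shock, changed by -0.84 ± 0.06, and Srsf11 by -0.26 ± 0.06 (adjusted p = 1.25e-03). Srsf12 was the member removed by the filter, with 0 counts in all 3 libraries of 0 h and 3, 0 and 0 counts at 96 h. At this depth no difference was detectable for it.

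The SR matrix proteins parted. Srrm1, a coactivator that bridges exon-bound SR proteins and the splicing machinery, had 198, 199 and 206 CPM at 0 h and 115, 111 and 123 CPM at 96 h, with a log2 change of -0.79 ± 0.05 (adjusted p = 1.84e-08). Srrm2, a very large scaffold of nuclear speckles, had 569.9, 559 and 589.6 CPM at 0 h and 545, 526 and 555 CPM at 96 h. The Srrm2 libraries of 96 h were all lower than those of 0 h, but the change of -0.08 ± 0.04 did not pass (adjusted p = 0.119). It passed with library size only (-0.33, adjusted p = 2.09e-04) and with DESeq2's Wald test (-0.11, adjusted p = 0.0112), and with upper-quartile scaling the value was 0.00.

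**Figure D2:**
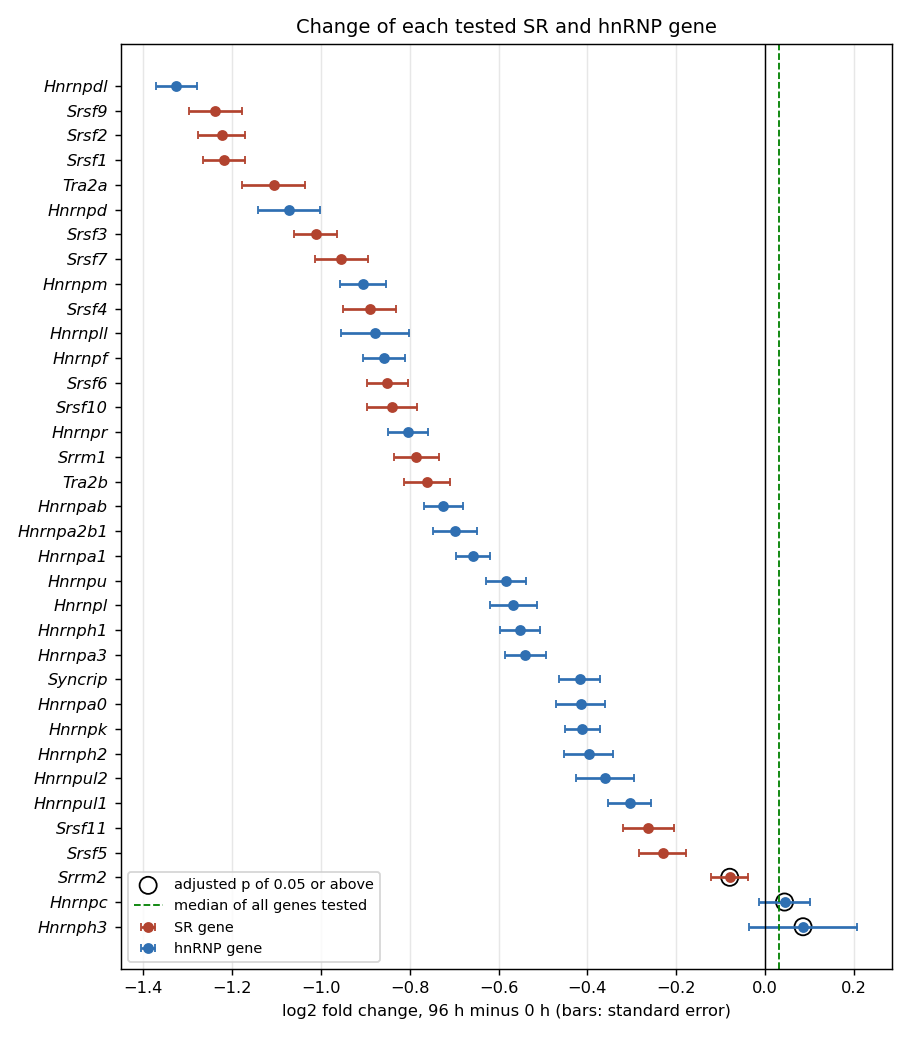
Log2 fold change of each tested member, 96 h minus 0 h, with bars of 1 SE, ordered by size, SR genes in red and hnRNP genes in blue, and a dashed line at the median of all genes tested (0.03). Values run from -1.33 for Hnrnpdl to 0.09 for Hnrnph3, and the 3 circled points, with an adjusted p of 0.05 or above, are Srrm2, Hnrnpc and Hnrnph3.

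Within the A/B and D group of hnRNPs, all 7 fell, with a median log2 change of -0.70. Hnrnpdl, a D-like protein that binds AU-rich elements, had the largest fall of all members. Its level was 192, 190.5 and 186 CPM at 0 h and 76.5, 76.1 and 74.3 CPM at 96 h, so that 39.9% of the 0 h level was left (-1.33 ± 0.05, adjusted p = 7.03e-11). Hnrnpd, which encodes AUF1, a factor in the decay of AU-rich mRNAs, had 162, 173 and 167 CPM at 0 h and 74.0, 74.7 and 89.9 CPM at 96 h (-1.07 ± 0.07, adjusted p = 1.83e-08). The third 96 h library was the highest of its group for Hnrnpd, yet lay below every 0 h library.

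Hnrnpa1, the classical antagonist of SR proteins in the choice of splice sites, had 864, 881 and 856 CPM at 0 h and 549, 548 and 554 CPM at 96 h. That left 63.4% of the 0 h level (-0.66 ± 0.04, adjusted p = 7.17e-09). Hnrnpa2b1, which also sorts RNAs for transport in neurons, changed by -0.70 ± 0.05, and Hnrnpab by -0.72 ± 0.04. Hnrnpa3 changed by -0.54 ± 0.05 and Hnrnpa0, a binder of AU-rich elements, by -0.42 ± 0.06. The estimated counts of Hnrnpa1, Hnrnpa3, Hnrnpc and Hnrnpd were not whole numbers in any of the 6 libraries (tolerance 0.01), as happens where reads are divided between similar genes, and these values are less certain than the rest. The pseudogene row Hnrnpa1l2-ps2, which was left out, summed to 47.3 counts over the 0 h libraries and 28.1 over those of 96 h.

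Of the F/H group, whose proteins bind runs of G, 3 of 4 fell. Hnrnpf had 396, 394 and 386.5 CPM at 0 h and 208, 211 and 231 CPM at 96 h (-0.86 ± 0.05, adjusted p = 4.34e-09). Hnrnph1 changed by -0.55 ± 0.05 and its X-linked paralog Hnrnph2 by -0.40 ± 0.05. Hnrnph3 was the scarcest tested member, with 14.9, 15.0 and 14.6 CPM at 0 h and 12.7, 16.0 and 18.4 CPM at 96 h. The 96 h libraries spread on both sides of those of 0 h, and the change of 0.09 ± 0.12 did not pass (adjusted p = 0.573).

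Of Hnrnpc, Hnrnpk and Hnrnpm, the last 2 fell and Hnrnpc did not pass the test. The Hnrnpc protein forms the core particle on nascent transcripts and binds runs of U, where it keeps U2AF from cryptic splice sites. The 0 h libraries gave 161, 163 and 146 CPM and the 96 h libraries 157, 154 and 173 CPM, which overlap. The change was 0.04 ± 0.06 (adjusted p = 0.545), and it was -0.21 (adjusted p = 0.0391) with library size only. Hnrnpm, which binds GU-rich sequence, had 324, 324 and 314.5 CPM at 0 h and 166, 163 and 185 CPM at 96 h (-0.90 ± 0.05, adjusted p = 5.88e-09). Hnrnpk, a KH-domain protein that binds runs of C, changed by -0.41 ± 0.04.

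Hnrnpl, which binds CA repeats, and its paralog Hnrnpll, known for the splicing switch of CD45 in lymphocytes, fell by 0.57 ± 0.05 and 0.88 ± 0.08 on the log2 scale. Hnrnpr changed by -0.80 ± 0.04 and Syncrip by -0.42 ± 0.05. Both are close relatives found in neuronal RNA granules. Hnrnpu, the scaffold attachment factor that binds RNA and chromatin, gave 1084, 1071 and 1028 CPM at 0 h and 695, 683 and 745 CPM at 96 h (-0.58 ± 0.04, adjusted p = 9.96e-08). The U-like genes Hnrnpul1 and Hnrnpul2 changed by -0.31 ± 0.05 and -0.36 ± 0.06, and with Srsf5 and Srsf11 they were the members whose fall did not pass a test against 1.2-fold.

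As a pool, the 36 members took 1.08, 1.11 and 1.01% of all counts at 0 h and 0.558, 0.563 and 0.629% at 96 h. The groups do not overlap, and the third 96 h library was the highest of its group. The mean went from 1.07% ± 0.050 (SD, n = 3) to 0.583% ± 0.040 (n = 3), a ratio of 0.547. Measured against nuclear protein-coding counts only, the share went from 1.64% ± 0.027 to 1.18% ± 0.034, a ratio of 0.721. On that scale the SR genes kept a ratio of 0.709 and the hnRNP genes 0.724, while the classical SR genes alone had 0.557. Classical SR counts per 100 hnRNP counts were 15.9, 15.0 and 15.3 at 0 h and 11.95, 12.2 and 11.4 at 96 h. This ratio within a library does not depend on scaling, and its groups do not overlap (15.4 ± 0.42 against 11.8 ± 0.39, SD, n = 3 each). As these groupings were made with earlier results of these data known, the ratio is given as a description with no test.

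The makeup of each family moved towards the genes that fell least. Srrm2 held 24.1, 24.3 and 25.5% of SR counts at 0 h and 36.8, 35.7 and 36.5% at 96 h, and Srsf1 went from 12.3% ± 0.45 to 8.22% ± 0.11 (SD, n = 3). Srsf11 rose in share from 4.65 to 6.04% and Srsf5 from 3.36 to 4.46%, and in the other direction 11 of the 15 SR genes lost share without overlap between the groups. Among the 21 hnRNP genes, 10 gained share and 9 lost it without overlap. No such count was made for shares in other sets of genes. As CPM, 31.7% of all genes tested were lower and 32.4% higher without overlap. Hnrnpc went from 2.10% ± 0.091 to 3.31% ± 0.092 of hnRNP counts, Hnrnpk from 9.21 to 10.6% and Hnrnpdl from 2.54 to 1.55%. The share of Hnrnpu was 14.3% at 0 h and 14.5% at 96 h, with overlapping libraries. Shares within a sum are bound to each other, so a gain here can be a smaller fall. They restate the changes of the single genes given above and are not further evidence.

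**Figure D3:**
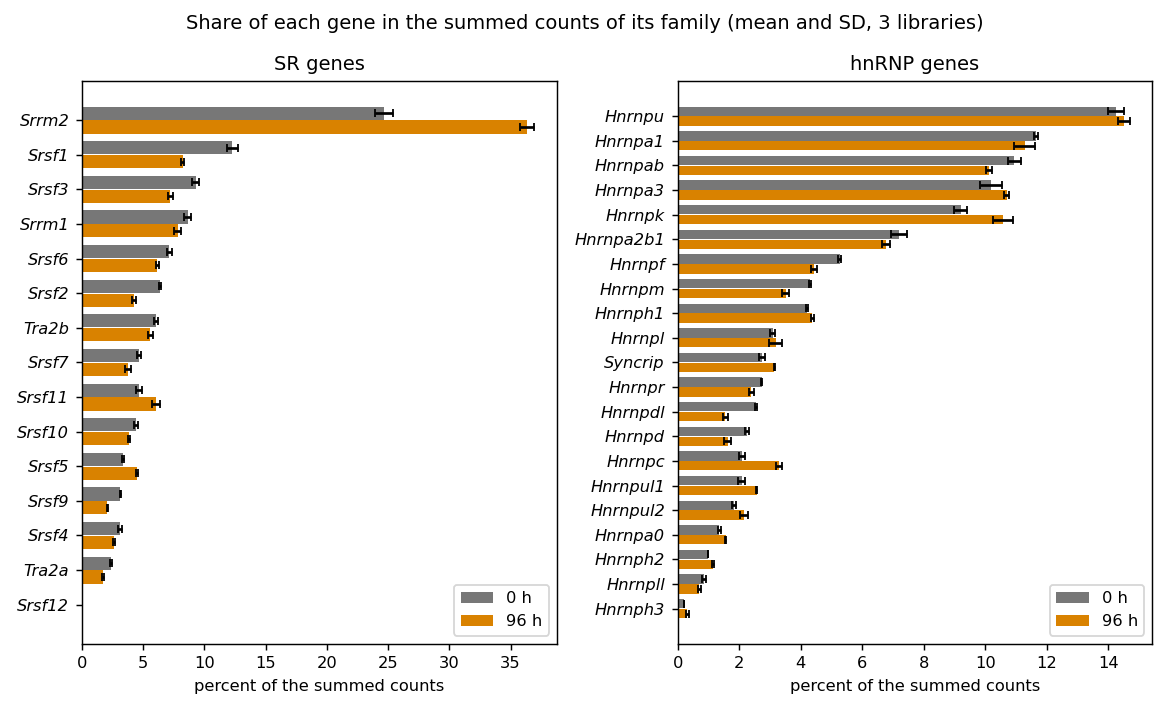
Share of each SR gene in summed SR counts and of each hnRNP gene in summed hnRNP counts (percent), as means of 3 libraries at 0 h and at 96 h with bars of 1 SD. Srrm2 grows from 24.6 to 36.3% of SR counts and Srsf1 shrinks from 12.3 to 8.22%.

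Ratios of related genes within a library were compared because scaling does not enter them. Of 14 pairs listed, 13 could be computed, since Srsf12 had too few counts. In 8 of the 13 no library of 96 h lay within the range of 0 h, each with the smallest p that 3 libraries against 3 allow in an exact two-sided permutation test (p = 0.1, 0.163 after Benjamini-Hochberg adjustment over 13 pairs), so no pair passed the threshold and none could. Separation was common in these data. Among single genes, 31.7% of all those tested were lower and 32.4% higher without overlap. The share among other gene pairs was not computed, so the count of 8 describes these pairs only. The largest shift was that of Srrm1 per Srrm2, whose counts went from a ratio of 0.350 to 0.215 (log2 change -0.71). Srsf5 per Srsf6 went the other way, from 0.472 to 0.725 (0.62). Hnrnpr per Syncrip went from 0.997 to 0.763. These are ratios of counts not corrected for transcript length, so only their change is read, not the relative level of the paralogs. Tra2a per Tra2b went from 0.388 to 0.305, Hnrnph1 per Hnrnpf from 0.799 to 0.989 and Hnrnpl per Hnrnpll from 3.63 to 4.49.

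In 5 pairs the ratios of the groups overlapped. Srsf1 and Srsf9 fell side by side, with a log2 ratio change of 0.02 (exact p = 0.7), as did Srsf3 and Srsf7 (-0.06, exact p = 0.3) and Srsf4 and Srsf6 (-0.04, exact p = 0.5). Hnrnpa1 and Hnrnpa2b1 changed against each other by 0.04 (exact p = 0.4), and Hnrnpul1 and Hnrnpul2 by 0.06 (exact p = 0.5). These p-values do not show that the paralogs acted alike, since 3 libraries a group set the limit.

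**Figure D4:**
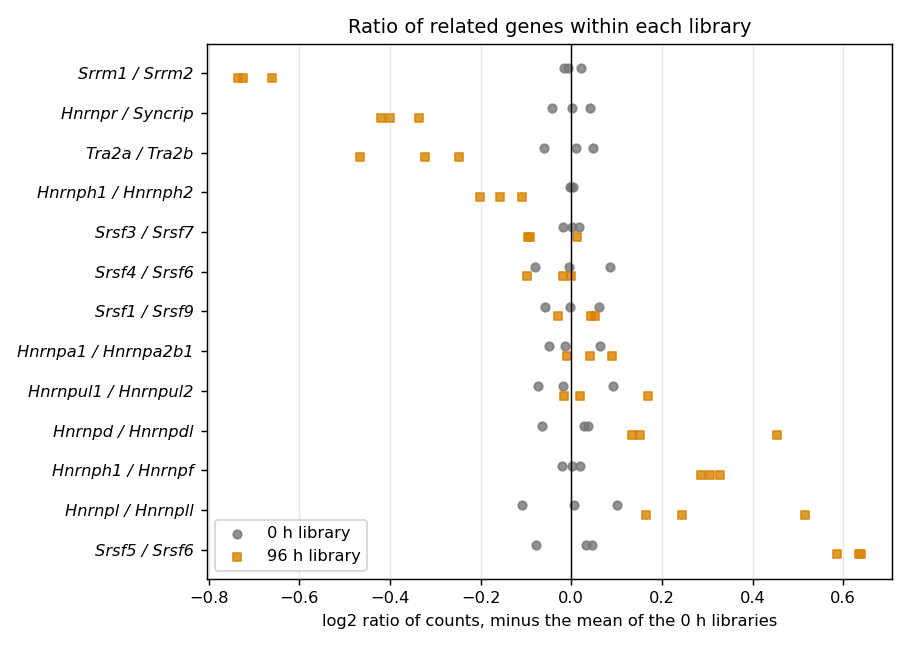
Log2 ratio of estimated counts within each library for 13 pairs of related genes, less the mean of the 0 h libraries of that pair, with 0 h and 96 h marked apart. The points of 8 pairs separate by group, among them Srrm1/Srrm2 and Srsf5/Srsf6, and those of 5 pairs mix.

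Levels between genes were compared as CPM per kb of the longest coding transcript. On that scale Hnrnpa1 led at 0 h with 452 ± 6.8 CPM per kb (SD, n = 3), followed by Hnrnpab at 344 and Hnrnpa2b1 at 310, and Hnrnph3 was lowest at 6.71. The 5 highest members, which also include Hnrnpk and Hnrnpf, held 48.2% of the members' summed level at 0 h and 48.2% at 96 h. Srsf1 moved from rank 17 to rank 25 of 35, and Hnrnpc from 16 to 11. With the median in place of the longest transcript length Hnrnpk led, and Hnrnpa1, Hnrnpab and Hnrnpk were among the 5 highest under both. Srrm2 and Hnrnpa3 came next after Hnrnpk by the median length, against ranks 14 and 6 by the longest. Spearman's rho between these scales at 0 h was 0.837, so the ranks given depend on the length used. Across the 35 genes the level at 0 h and the log2 change had a Spearman's rho of -0.089, a description over genes that share libraries.

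Because SR and hnRNP mRNAs are often limited by unproductive splicing, the annotated transcripts of the members were counted (GENCODE M21, matched by symbol). A transcript marked for nonsense-mediated decay was listed for 24 of the 35 tested members (68.6%), against 3371 of 11520 tested protein-coding genes (29.3%). It was 13 of 14 SR genes and 11 of 21 hnRNP genes. A retained-intron transcript was listed for 27 members (77.1%), against 59.2% of those genes. The members also had more annotated transcripts, with a median of 9.0 per gene against 5.0. A gene with more listed transcripts has more room for such a form, and these shares were not adjusted for that. Gene sums cannot separate productive mRNA from such forms, so each value above covers all of them together.

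The pathways around the families were read from lists of other genes. Of 10 tested SR kinases and import receptors, 5 rose and 5 fell, and the median log2 change was -0.01. Clk1, a nuclear kinase of SR proteins, had 11.4, 10.3 and 10.9 CPM at 0 h and 18.7, 20.8 and 22.1 CPM at 96 h, without overlap (0.92 ± 0.10, adjusted p = 3.11e-06). Srpk2, a cytoplasmic SR kinase prominent in neurons, went from 42.6, 43.0 and 39.0 CPM to 62.3, 59.7 and 62.1 CPM (0.56 ± 0.06, adjusted p = 3.42e-06). The kinase Prpf4b and the import receptor Tnpo1, which carries Hnrnpa1 protein into the nucleus, fell by 0.78 ± 0.05 and 0.63 ± 0.05 on the log2 scale. The other tested genes of the list are named after their values were seen. Clk3 and Tnpo2 rose by 0.66 ± 0.12 and 0.60 ± 0.07, and Srpk1 and Tnpo3, the import receptor of SR proteins, changed by -0.27 and -0.49 ± 0.05. Clk2 (-0.55 ± 0.22, adjusted p = 0.0424) and Clk4 (0.25 ± 0.10, adjusted p = 0.0434) passed narrowly and lost their call under several alternatives, and Clk4 was at -0.01 with library size only.

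The lists of other RNA-binding proteins mostly fell. In the list of nonsense-mediated decay and the exon junction complex, 11 of 15 fell and none rose, with a median of -0.43. The falls with the smallest adjusted p were those of Eif4a3, the anchor of the exon junction complex (-0.94 ± 0.05), and Upf1, the central helicase of the decay pathway (-0.84 ± 0.05). The count of 0 higher in that list came with 0 at an unadjusted p under 0.05 in edgeR and 0 with DESeq2's Wald test. Of 24 SR-related proteins, 15 fell and 4 rose, with a median of -0.41, and with library size only 20 fell and none rose. U2af1, the factor that reads the AG of the 3′ splice site, changed by -1.05 ± 0.08 and Luc7l3 by -0.91 ± 0.06. Srrm3, a neuronal relative of the SR matrix proteins that promotes microexons, rose by 0.34 ± 0.06, and Scaf1 rose by 0.25 ± 0.06. With library size only neither passed, Srrm3 at 0.09 (adjusted p = 0.314) and Scaf1 at 0.00, and neither passed against a 1.2-fold change. Srrm4, named after its value was seen, did not pass in the main test (-0.03 ± 0.06, adjusted p = 0.714). Of 22 other hnRNP-class proteins, 20 fell, none rose (0 also at an unadjusted p under 0.05 in edgeR and 0 with DESeq2's Wald test) and the median was -0.53. Pcbp3, a binder of runs of C, had 484, 482 and 499.6 CPM at 0 h and 254, 254 and 248 CPM at 96 h (-0.96 ± 0.04, adjusted p = 3.67e-10). Fubp1, a single-strand binder that activates Myc transcription, changed by -0.89 ± 0.05. These counts stand beside the 28.8% of all genes that fell and the 28.7% that rose. Falls were more common among the 6521 protein-coding genes within the members' range of 0 h CPM, where 3229 fell and 1409 rose. The median of those genes was -0.18. The lists themselves were not matched for level.

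**Figure D5:**
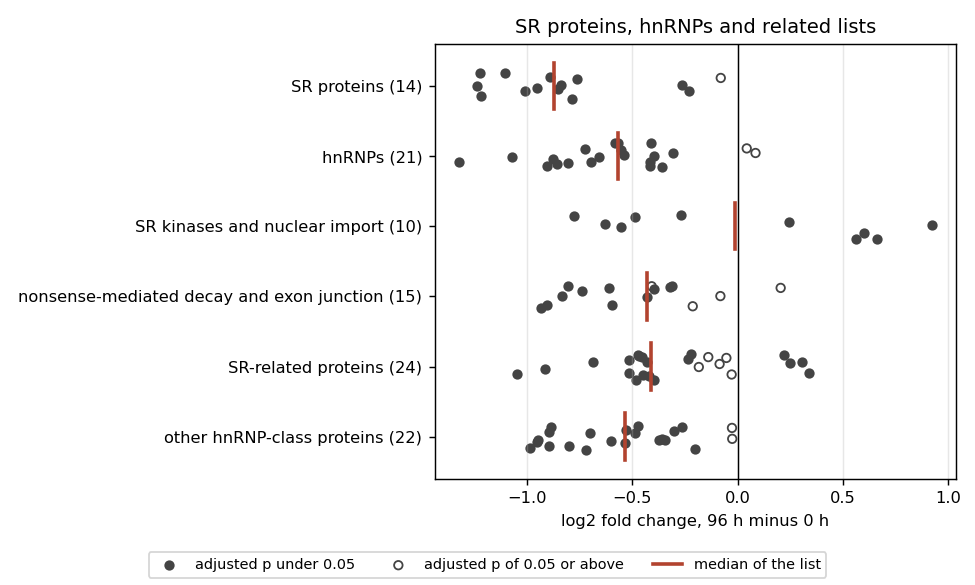
Log2 fold change (96 h minus 0 h) of each tested gene of the SR family, the hnRNP family and 4 lists of related genes, filled where the adjusted p was under 0.05, with the median as a bar. The medians are -0.87, -0.57, -0.01, -0.43, -0.41 and -0.53, so that the list of SR kinases and import receptors is centred near 0 and the rest lie below it.

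In the RefSeq promoters of the members (34 of 36 matched by symbol, those of Hnrnpll and Hnrnpul2 not analysed here), the CCAAT letters occurred on either strand in 18 (52.9%), in 5 of 15 SR genes and 13 of 19 hnRNP genes. They occurred in 41.6% of 9493 tested protein-coding genes, counted like the members per gene, with a match in any promoter of the gene. Counted per promoter, and over genes of every type, they occurred in 33.9% of all 32851 promoters, which is not the same unit. Of the 18 tested members with these letters 17 fell, with a median of -0.68, and of the 15 without them 13 fell, with a median of -0.85. The letters were more common in hnRNP genes, whose median change was -0.57, than in SR genes, where it was -0.87. Letters and family therefore cannot be told apart in this split. The E-box letters CACGTG occurred in 3 members (8.82%, against 9.91% of tested protein-coding genes), the ETS letters CCGGAAG in 6 (17.7%, against 16.0%), and TATAAA in 3 (8.82%, against 7.68%). All were searched on both strands within 250 bases, and a match or its absence describes only these letters. The median GC content of the members' promoters was 65.6%, and it was 60.0% for the tested protein-coding genes.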

How the data were processed

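RNA of 6 N2A-A5 libraries, 3 at 0 h and 3 at 96 h, was depleted of ribosomal RNA and made into stranded total RNA libraries, per the labels' protocols. Values in the deposited table are expected counts, estimated per gene symbol and not normalised. The submitters' processing notes name Salmon 1.10.1, FastQC 0.12.1, DESeq2 1.52.0 and the build mm39. What each tool did, the annotation and the strand setting were not given in the sources used here. Estimation can split reads between near-identical copies and overlapping genes.

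Counts were rounded, filtered with filterByExpr (13705 genes left), scaled with TMM and tested in edgeR 4.0.16 (R 4.3.3, quasi-likelihood F test, adjusted p under 0.05 over all genes tested). The SE is the size of the log2 change divided by the square root of F, and CPM uses TMM-scaled library sizes. Paralog ratios (0.5 counts added to each gene) were compared with an exact permutation test. The text names every member and, from each related list, the 2 higher and 2 lower genes with the smallest adjusted p. Further genes of these lists are marked as named after their values were seen. Members, lists and pairs were chosen with earlier results of these data known. Biotypes and promoters came from RefSeq GRCm38.p6 and transcript lengths from GENCODE M21 (GRCm38), which precedes mm39, matched by symbol (all 36 members for biotypes and lengths, 34 for promoters). Totals were 16.8 to 20.9 M counts per library. Chi-square per degree of freedom between libraries of a group was at least 6.32, so the spread between libraries exceeded counting error and none was a repeat deposit. Alternatives were other scalings, filters, tests (DESeq2 1.42.0, limma-voom 3.58.1), thresholds, a replicate block and leaving out each library.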

Additional observations from a re-analysis of the deposited data

How the results depend on the processing

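Members lower numbered 32 under DESeq2 size factors, upper-quartile scaling, a protein-coding fit, both other filters, limma-voom, an adjusted p of 0.01 and the removal of any 1 library. They numbered 34 with library size only, 33 with DESeq2's Wald test and 28 against a 1.2-fold change. Members higher numbered 0 under all of these. The median member change ran from -0.98 (library size only) to -0.64 (upper quartile). Over all genes, library size only gave 2409 higher and the test against 1.2-fold 2515 lower. Values that changed sign were those of Hnrnpc (-0.21 with library size only, -0.0173 to 0.0719 leaving out 1 library, negative without 0 h replicate 3 or 96 h replicate 3), Hnrnph3 (-0.16 with library size only, -0.0512 to 0.2023 leaving out 1 library, negative without 96 h replicate 3), Srrm2 (0.0015 with upper quartile), Scaf1 (-0.0001) and Clk4 (-0.0058), the last 2 with library size only. The cause was not tested. Clk2 lost its call without any 1 of 4 libraries and Clk4 without any 1 of 5. Replicate numbers did not pair the libraries (correlations of deviations -0.01, 0.01 and -0.01), and with a replicate block 32 members were lower, as were 3858 genes, with 3854 higher. The filter on low counts removed only Srsf12 among the members. Hnrnph3, the scarcest tested member, had the largest SE of them (0.12), so a small change in it could have been missed.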
